A study of Mus musculus with 6 samples.

Results

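The 10 genes studied are typical of mast cells and basophils and were read in the RNA-seq of cultured mouse fetal liver erythroblasts. They are 6 proteases (Cpa3, Mcpt8, Prss34, Gzmb, Cma1 and Tpsb2), the 3 chains of the high-affinity IgE receptor (Fcer1a, Ms4a2 and Fcer1g) and Hdc, which encodes the enzyme that makes histamine. The genes were chosen by name, and all 10 were found by symbol among the 17463 genes of the table. The cells were from mid-gestation C57BL/6J fetal livers. The labels give no embryonic day, whereas the study's text names one for its fetal liver cells. The cells lacked the erythroid surface protein TER119 and were grown in medium with erythropoietin (Epo) for 30 h. The medium held 40 µM cholesterol in 3 samples and no added cholesterol in 3 control samples, which the labels call untreated and the study calls vehicle-treated. By the study's methods, TER119+ cells were then sorted for RNA, a step that the labels do not mention. TER119 was thus the surface marker used at both steps. Samples carry the numbers 1 to 3 in each group, and neither the labels nor the methods say whether the same number marks the same embryos, culture or day. P-values therefore measure the spread between these samples, which may be technical.

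Mast cells and basophils are granulated blood cells that bind IgE through a receptor of an IgE-binding alpha chain, a signal-amplifying beta chain and a gamma chain shared with other immune receptors. When antigen crosslinks the bound IgE, the cells release histamine and proteases from their granules. Chymases, tryptases and carboxypeptidase A3 are typical of mast cell granules, whereas the proteases encoded by Mcpt8 and Prss34 are typical of mouse basophils. Several of the 10 genes are not restricted to these cells. Fcer1g is used across myeloid and natural killer (NK) cells, and Gzmb by cytotoxic lymphocytes. In bulk RNA, fewer cells of a type and less RNA per cell cannot be told apart.

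The transcripts detected were a part of the list. Between 19826797 and 20061702 reads were counted per sample, so that 3 counts, the limit taken for detection, corresponded to 0.15 CPM (counts scaled to the size of each library, with TMM factors). These limits cover counting error only. Cpa3, Fcer1g and Hdc lay above 3 counts in all 6 samples and Mcpt8 in 5. Ms4a2 and Gzmb did so in 4 samples and Prss34 in 2. The alpha chain gene Fcer1a, which defines IgE binding, had at most 2 counts in any sample, the chymase gene Cma1 at most 3, and the tryptase gene Tpsb2 had 0 in all 6, which allows up to 3 counts in each. The label of mast cell and basophil genes thus rests in these libraries on Cpa3, the basophil proteases, Hdc and the beta and gamma chains, without detectable Fcer1a, chymase or tryptase.

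The genes lie on 6 chromosomes in the GRCm38.p6 build, which the submitters' processing notes name and the RefSeq tables used here share. Cma1 (chr14:55941451-55944675), Mcpt8 (chr14:56082163-56085499) and Gzmb (chr14:56258836-56262334) belong to the granule protease cluster of chromosome 14, with 137.5 kb between the first pair and 173.3 kb between the second. Prss34 (chr17:25298394-25300168) and Tpsb2 (chr17:25366308-25368096) stand 66.1 kb apart on chromosome 17. Fcer1g (chr1:171229572-171234349) and Fcer1a (chr1:173221269-173227232) share chromosome 1. Cpa3 (chr3:20215616-20242209), Hdc (chr2:126593659-126624025) and Ms4a2 (chr19:11615517-11623790) have no other member on their chromosomes.

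GATA2 is a transcription factor that mast cells and basophils need, and factors of its family bind the letters GATA in a short context. The promoters of the 4 genes that could be tested below are shown, with that of Ms4a2, which held the most such words. Each window is 300 bases from RefSeq (GRCm38.p6), running from 250 bases before to 50 bases after a transcription start, and is written 5′ to 3′ on the strand of the gene. Capitals mark the word AGATAA, the word AGATAG, the word TGATAA or the word TGATAG, on either strand, and neighbouring matches could share end bases. The windows are Cpa3 at chr3:20242132-20242431, Hdc at chr2:126618629-126618928, Mcpt8 at chr14:56085148-56085447, Fcer1g at chr1:171234300-171234599 and Ms4a2 at chr19:11623670-11623969, all on the minus strand. The start of Fcer1g is the end of its annotated span, whereas the starts used lie inside the span by 28 bases in Cpa3, 71 in Ms4a2, 302 in Mcpt8 and 5347 in Hdc. The windows of Mcpt8 and Hdc are therefore wholly within the annotated genes.
Cpa3: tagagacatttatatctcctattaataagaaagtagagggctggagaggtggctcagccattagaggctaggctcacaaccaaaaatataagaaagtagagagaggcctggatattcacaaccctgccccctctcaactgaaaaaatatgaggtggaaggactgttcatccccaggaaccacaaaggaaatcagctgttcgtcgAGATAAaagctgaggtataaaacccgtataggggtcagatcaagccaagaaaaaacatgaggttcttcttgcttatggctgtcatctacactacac
Hdc: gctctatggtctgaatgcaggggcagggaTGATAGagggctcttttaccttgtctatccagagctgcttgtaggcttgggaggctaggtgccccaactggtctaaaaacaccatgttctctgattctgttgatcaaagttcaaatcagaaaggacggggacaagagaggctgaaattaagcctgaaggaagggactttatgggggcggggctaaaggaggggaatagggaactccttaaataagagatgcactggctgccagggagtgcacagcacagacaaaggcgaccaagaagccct
Mcpt8: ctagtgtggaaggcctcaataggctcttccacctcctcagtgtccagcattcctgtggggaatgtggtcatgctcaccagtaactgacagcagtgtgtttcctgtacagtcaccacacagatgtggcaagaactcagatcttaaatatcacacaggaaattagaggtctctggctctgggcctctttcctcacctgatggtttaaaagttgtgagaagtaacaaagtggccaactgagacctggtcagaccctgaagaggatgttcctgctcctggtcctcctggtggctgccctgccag
Fcer1g: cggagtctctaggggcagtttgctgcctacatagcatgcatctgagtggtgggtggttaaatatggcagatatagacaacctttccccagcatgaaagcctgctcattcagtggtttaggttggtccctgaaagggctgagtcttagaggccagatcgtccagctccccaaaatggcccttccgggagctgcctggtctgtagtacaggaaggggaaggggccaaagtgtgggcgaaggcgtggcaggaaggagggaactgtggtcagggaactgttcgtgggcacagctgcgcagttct
Ms4a2: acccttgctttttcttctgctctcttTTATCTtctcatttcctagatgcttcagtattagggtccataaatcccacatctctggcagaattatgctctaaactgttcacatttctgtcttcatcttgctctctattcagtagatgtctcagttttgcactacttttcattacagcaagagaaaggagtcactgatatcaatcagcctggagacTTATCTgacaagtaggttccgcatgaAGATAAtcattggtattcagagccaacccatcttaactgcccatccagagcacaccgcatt
In Cpa3 the word AGATAA began 46 bases before the start, and in Hdc the word TGATAG began 221 bases before it. Ms4a2 held AGATAA 3 times, beginning 224, 37 and 11 bases before the start, the first 2 of them on the opposite strand. The windows of Mcpt8 and Fcer1g held none of the 4 words. Of the 9 members with a window in the table, 6 held at least 1 word (Cpa3, Hdc, Ms4a2, Prss34, Fcer1a and Cma1), against 29.8% of all 32851 windows of the same length. In Prss34 the word AGATAA began 31 bases before the start. The E-box word CACGTG and the E-box word CATGTG, bound by the mast cell factor MITF, were found on either strand in 2 of the 9 windows, those of Prss34 and Fcer1a, and in 20.4% of all windows. A word is a match of letters and not a binding site.

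Levels were compared between genes in FPKM, the length-scaled values of the authors. Fcer1g was the highest of the 10 in every sample, at 25.9 ± 28.6 FPKM in control and 9.59 ± 9.12 with cholesterol (SD, n = 3 in each group). Next in control came Mcpt8, at 3.65 ± 4.83 in control and 0.57 ± 0.58 with cholesterol, ahead of Hdc at 2.50 ± 2.45 and 0.60 ± 0.33 and Cpa3 at 2.43 ± 2.31 and 0.52 ± 0.25. Lower still were Prss34 (0.48 ± 0.74 in control), Gzmb (0.31 ± 0.091) and Ms4a2 (0.27 ± 0.28). In control the SD was close to or above the mean for each of these genes but Gzmb, and neighbours in this order did not differ beyond their spread. Fcer1g alone took between 49.3% and 70.4% of the counts of the 10 genes, the highest share in cholesterol sample 3.

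The proteases are described first. Cpa3, which encodes carboxypeptidase A3, was at 1.21, 1.98 and 7.63 CPM in control samples 1 to 3 and, with cholesterol, at 0.444, 0.543 and 1.18 CPM in the same order. All 3 control values lay above all 3 cholesterol values, although only narrowly between control sample 1 and cholesterol sample 3. Within same-numbered pairs, control was 2.74, 3.65 and 6.49 times as high as cholesterol in pairs 1 to 3.
Mcpt8, which encodes the basophil protease mast cell protease 8, was at 0.253, 1.19 and 7.94 CPM in the control samples and at 0, 0.445 and 0.971 CPM in the cholesterol samples. The groups overlapped, and control sample 3 stood far above the other 5 samples. In pairs 2 and 3 control was 2.67 and 8.18 times as high, and in pair 1 it had 5 counts against 0 with cholesterol.
Prss34, a second basophil protease gene, was seen mainly in 1 library, with 0, 2 and 29 counts in control and 1, 1 and 4 with cholesterol. Gzmb, which encodes granzyme B, had 6, 9 and 11 counts in control and 1, 1 and 4 with cholesterol. Its control values, at 0.303, 0.446 and 0.571 CPM, all exceeded its cholesterol values of 0.0493, 0.0494 and 0.204 CPM, and control sample 3 was 1.88 times as high as control sample 1.

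Of the receptor chains, the gamma chain gene Fcer1g was at 3.39, 8.77 and 39.0 CPM in control samples 1 to 3 and, with cholesterol, at 2.07, 3.41 and 13.04 CPM. The groups overlapped, since cholesterol sample 3 exceeded control samples 1 and 2. Within pairs 1 to 3, control was 1.64, 2.57 and 2.99 times as high.
The beta chain gene Ms4a2 had 0, 14 and 27 counts in control and 0, 5 and 6 with cholesterol. It was thus undetected in both samples numbered 1, and control was 2.81 and 4.57 times as high in pairs 2 and 3. Fcer1a had 0, 0 and 1 counts in control and 0, 0 and 2 with cholesterol, and no difference was detectable at this depth.
Hdc, the histamine enzyme gene, was at 1.72, 3.62 and 13.4 CPM in control and at 0.789, 1.19 and 2.40 CPM with cholesterol. The lowest control value lay below the highest cholesterol value, so the groups overlapped, but control was 2.18, 3.05 and 5.57 times as high within pairs 1 to 3.

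**Figure D1:**
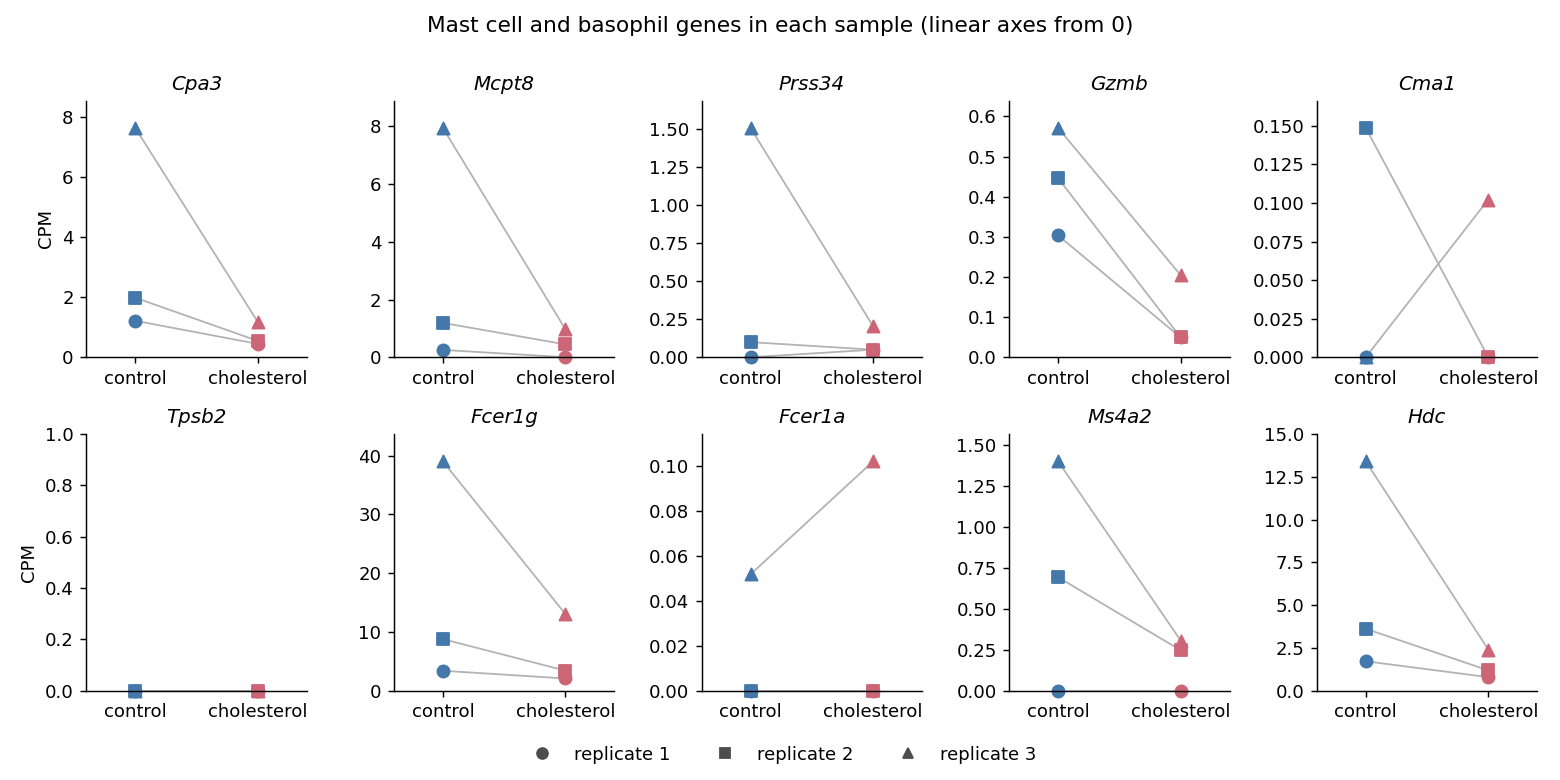
CPM of each of the 10 genes (linear axes from 0) in the control (blue) and cholesterol (red) samples, with grey lines joining samples of the same replicate number. In 5 genes all 3 lines fall towards cholesterol, and control sample 3, the upper blue triangle, is the highest sample of each of them.

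The 5 genes that were lower with cholesterol in all 3 pairs were Cpa3, Mcpt8, Fcer1g, Hdc and Gzmb, and of the genes tested across the transcriptome 20.1% were lower in all 3 pairs and 19.9% higher. In Cpa3, Fcer1g and Hdc the ratio of control to cholesterol was highest in pair 3, and in Mcpt8 it was higher in pair 3 than in pair 2, while pair 1 gave no ratio. Summed over the 10 genes, the level was 6.87, 16.9 and 71.5 CPM in control samples 1 to 3 and, with cholesterol, 3.40, 5.93 and 18.5 CPM, so that control was 2.02, 2.86 and 3.86 times as high within pairs. Groups that did not overlap, with control above, were seen for Cpa3 alone of the 4 genes that could be tested, against 4.28% of all genes tested. The opposite arrangement, with cholesterol above, held for 0 of the 4 and for 3.72% of all genes.

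Cholesterol was compared with control by edgeR's quasi-likelihood test on rounded counts over 11277 genes with enough counts, with Benjamini-Hochberg adjustment. Of the 10 members, 4 passed the filter on low counts (Cpa3, Mcpt8, Fcer1g and Hdc) and 6 did not. The filter needed about 10 counts in 3 samples of any group, which Mcpt8 met with control samples 2 and 3 and cholesterol sample 3. With condition alone in the model, 0 of the 4 were called at an adjusted p under 0.05, where 0% of all genes tested were called lower and 0.00887% higher. At an unadjusted p under 0.05, 2 of the 4, Cpa3 and Hdc, were lower, against 1.92% of all genes, and DESeq2 called 0 of the 4. The fitted log2 fold change was −2.31 (standard error, SE, 0.80) for Cpa3, −2.72 (SE 1.47) for Mcpt8, −1.47 (SE 1.04) for Fcer1g and −2.09 (SE 0.83) for Hdc, each with an adjusted p of 0.9998 in edgeR's test.
With the replicate number as a block, all 4 tested members fell, where 5.20% of all genes tested were called lower and 1.65% higher. Mcpt8, which passed the filter with 3 samples, had an estimate of −2.57 log2 units (SE 0.40, adjusted p = 0.000484 in edgeR's test with the block). Cpa3 had an estimate of −2.18 log2 units (SE 0.30, adjusted p = 0.000109) and Hdc one of −1.93 (SE 0.24, adjusted p = 9.43e-05) in the same edgeR fit. Fcer1g had the smallest change and the smallest p, at −1.38 (SE 0.13, adjusted p = 6.51e-06 in edgeR with the block). The median of the 4 was −2.20 without the block and −2.06 with it, beside a median of 0.01 over all genes tested in both fits. Limma on log2(FPKM + 1) with the same block, added after the data were seen, called 0 of the 4 and 0.435% of all genes, with adjusted p from 0.131 for Fcer1g to 0.281 for Mcpt8 and log2 fold changes from −1.09 for Mcpt8 to −0.92 for Hdc. DESeq2 with the block, added likewise, called all 4 and 2.56% of all genes.
Control sample 3 held much of the difference between the groups. Without it, in the model with condition alone, the log2 fold change was −1.14 for Cpa3, −0.61 for Mcpt8, −0.87 for Hdc and 0.020 for Fcer1g, so that the direction of Fcer1g was not kept. When both samples numbered 3 were left out of the model with the block, Cpa3 (−1.67, adjusted p = 0.00437), Hdc (−1.40, adjusted p = 0.00179) and Fcer1g (−1.11, adjusted p = 1.04e-05) were still called lower by edgeR, whereas Mcpt8 had too few counts to be tested. With 3 samples against 3, exact permutation cannot go below p = 0.1 for any one gene and was not used.

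**Figure D2:**
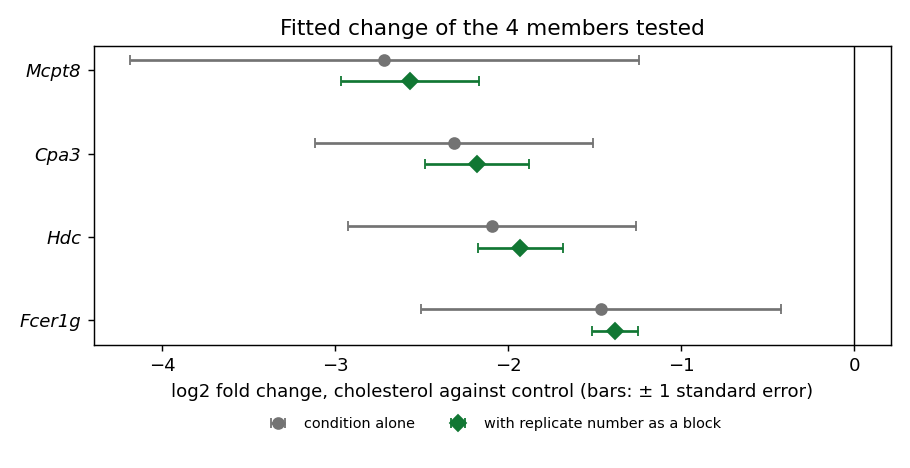
Fitted log2 fold change of cholesterol against control for the 4 members tested, with condition alone (grey circles) and with a block for replicate number (green diamonds), bars being 1 standard error to each side. The estimates differ little between the models, from −1.38 to −2.57 with the block, while the standard error of Fcer1g goes from 1.04 to 0.13.

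With all 6 samples in the fit, Gzmb, Ms4a2 and Prss34 were below the filter and were fitted without it, among 16509 genes. With the block, a combination chosen after the data were seen, Ms4a2 had an estimate of −1.84 log2 units (SE 0.61, adjusted p = 0.042 in edgeR), where 5.02% of all genes in that fit were called lower. Gzmb stood at −2.10 (SE 0.78, adjusted p = 0.0814) and Prss34 at −2.11 (SE 0.82, adjusted p = 0.107), and neither passed. Without the block and without the filter, edgeR called 0 of the 9 members with any count, and 0% of all genes in that fit were called lower. At an unadjusted p under 0.05, 3 of the 9 (Cpa3, Hdc and Gzmb) were lower, against 1.65% of all genes.

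In both groups the same replicate number held the highest levels of the 4 tested members. Samples numbered 3 were the highest of their group, in control and in cholesterol alike, for all 4 tested members, as for 32.6% of all genes tested. In control, sample 3 exceeded sample 1 by 6.29 times in Cpa3, 7.79 times in Hdc, 11.5 times in Fcer1g and 31.4 times in Mcpt8. In cholesterol, sample 3 exceeded sample 1 by 2.65 times in Cpa3, 3.05 times in Hdc and 6.30 times in Fcer1g. The numbers are names without an order, so the test asked whether the 3 numbers differed at all, with condition in the model. All 4 tested members were called in edgeR's test of the replicate number, with adjusted p of 3.47e-10 for Fcer1g, 1.62e-06 for Mcpt8, 5.47e-06 for Hdc and 3.86e-05 for Cpa3. The share called over all genes tested was 46.3%, so a difference between numbers was common in these libraries. With limma on log2(FPKM + 1), Fcer1g alone of the 4 was called, where 38.8% of all genes were, and the adjusted p was 0.101 for Cpa3, 0.0799 for Mcpt8 and 0.0753 for Hdc. With limma on log2(FPKM + 0.1) all 4 were called, where 41.8% of all genes were. Without control sample 3, Cpa3 was not called by edgeR either (adjusted p = 0.0993). In the fit without a filter, edgeR called 6 of the 9 members, where 35.8% of all genes were called. These were the 4 above with Ms4a2 (adjusted p = 7.42e-06) and Prss34 (adjusted p = 3.52e-05), and Gzmb was not called (adjusted p = 0.638).

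Within a sample, the members did not keep a fixed proportion to each other. Hdc had between 1.42 and 2.18 counts for each count of Cpa3 over the 6 samples. Fcer1g ranged more widely, from 2.79 counts per count of Cpa3 in control sample 1 to 11.1 in cholesterol sample 3. For Mcpt8 the same ratio was 0.208, 0.60 and 1.04 in control samples 1 to 3 and, with cholesterol, 0, 0.818 and 0.826. These ratios rest on as few as 9 counts of Cpa3.

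Levels of some other cell types, but not of all, moved with the members, and their part in the result was not tested. The 10 neutrophil granule genes, led by Ngp, summed to 72.6, 269.6 and 728 CPM in control samples 1 to 3 and to 44.0, 116 and 303 CPM with cholesterol, with none of the 10 at 0 in any sample. The 10 macrophage genes, led by the lysozyme gene Lyz2, summed to 23.0, 78.9 and 265 CPM in control and to 14.6, 30.3 and 92.7 CPM with cholesterol, again with none at 0. Both lists were thus highest in control sample 3 and lower with cholesterol in every pair, as were the 10 members. With the block, 9 of the 10 neutrophil genes and 4 of the 9 macrophage genes tested were called lower, and 1 macrophage gene, Cd5l, was called higher. Of all genes tested, 5.20% were called lower and 1.65% higher in that fit.
The 8 eosinophil genes, led by Prg2, summed to between 14.7 and 48.8 CPM in control and between 10.6 and 38.0 CPM with cholesterol, and control was 1.38, 1.47 and 1.29 times as high in pairs 1 to 3. With the block 1 of the 8 (Prg2) was called lower, against 5.20% of all genes tested. NK and T cell genes summed to between 4.90 and 8.74 CPM in any sample, most of it from Lck, with 100 of the 150 counts in control sample 3. Their sum in control was 0.975, 0.994 and 0.891 times that with cholesterol in pairs 1 to 3. Gzma and Prf1, which cytotoxic cells express beside Gzmb, had 0 and at most 1 count. Nkg7 of the same list had 3, 7 and 27 counts in control and 5, 4 and 5 with cholesterol. Klrk1 had 0, 1 and 14 counts in control and 0, 0 and 9 with cholesterol. Megakaryocyte genes, led by Itga2b, summed to between 60.7 and 79.2 CPM, and Itga2b was the 1 of 8 called lower, against the same 5.20%. Hepatocyte genes, led by Afp, ranged from 69.0 to 282 CPM without a common direction in the pairs. The 11 erythroid genes, among them Slc4a1 and the globins, summed to between 113897 and 169376 CPM with none at 0, led by Hba-a1, so the defining genes of the labelled cells were present. Their sum was also lower with cholesterol in every pair, control being 1.21, 1.04 and 1.09 times as high. With the block 3 of the 11 were called lower, again against 5.20% of all genes tested.

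**Figure D3:**
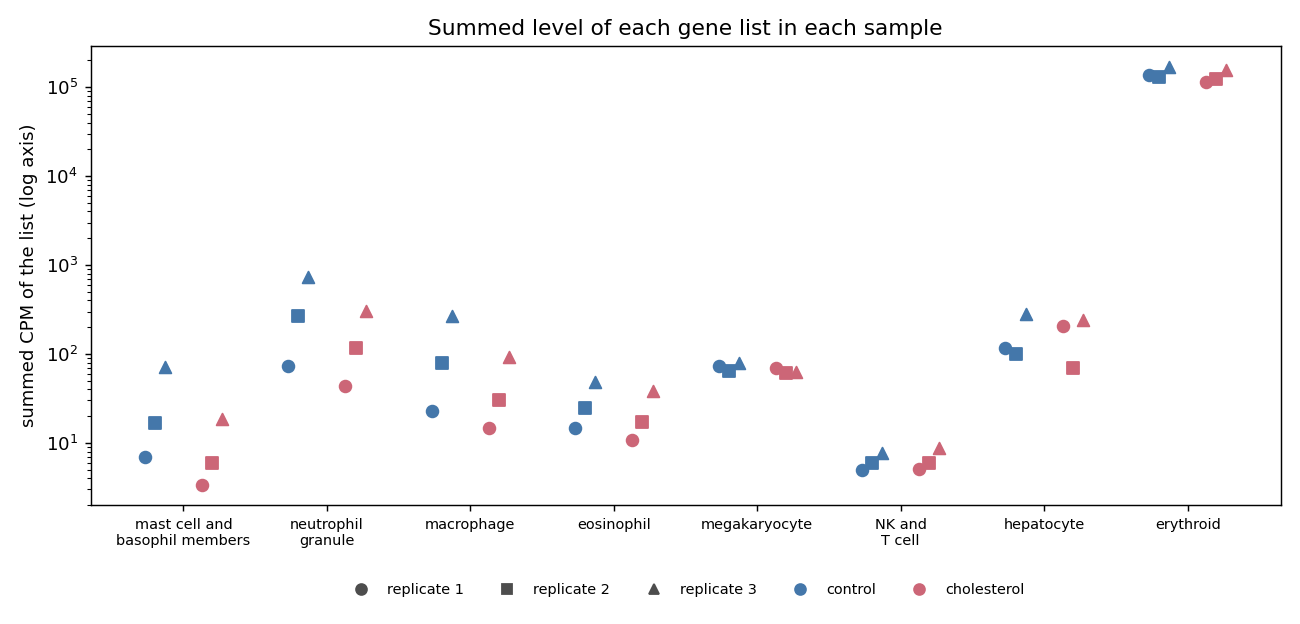
Summed CPM of the 10 members and of 7 lists of genes of other cell types in each sample (log axis), with control in blue, cholesterol in red and a symbol for each replicate number. The members reach from 3.40 to 71.5 CPM and are highest in control sample 3 and lowest in cholesterol sample 1, as are the neutrophil, macrophage, eosinophil and erythroid lists. The erythroid genes lie between 113897 and 169376 CPM.

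Other genes of mast cells and basophils were followed in 4 lists, and with condition alone edgeR called 0 genes of these lists, while 0 of 6 granule genes tested, 1 of 16 signalling genes, 2 of 15 receptors or mediators and 2 of 11 transcription factors were lower at an unadjusted p under 0.05, against 1.92% of all genes tested. Of 12 further granule genes, 10 were found by symbol and 6 passed the filter, and the mast cell proteases Mcpt1, Mcpt2 and Mcpt9 and the tryptase gene Tpsg1 had at most 1 count in any sample. With the block, which called 5.20% of all genes tested lower, 1 of the 6 fell and 5 did not pass. This was Cd63, a granule membrane protein, at 3.99, 5.25 and 10.1 CPM in control and 3.01, 2.42 and 6.24 CPM with cholesterol (log2 fold change −0.74, adjusted p = 0.0078 in edgeR with the block). Srgn, which encodes the granule proteoglycan serglycin, and Ndst2, an enzyme of heparin synthesis, had the highest FPKM of the list, with log2 fold changes of −0.39 (adjusted p = 0.145) and 0.13 (adjusted p = 0.123) in the same edgeR fit. The median of the list was −0.18.
Of 16 genes that carry the signal of the IgE receptor, 6 fell with the block, 0 rose and 10 did not pass, with a median log2 fold change of −0.28. That fit called 5.20% of all genes tested lower and 1.65% higher. The 6 were the tyrosine kinases Lyn (−0.69) and Syk (−0.85), the adaptor Lcp2 (−1.38), the exchange factor Vav1 (−0.82), the phospholipase Plcg2 (−1.11) and the lipid kinase subunit Pik3cd (−1.03), on the log2 scale, with adjusted p between 0.000109 and 0.00789 in edgeR with the block. Lcp2 was at 1.26, 3.52 and 11.9 CPM in control and 0.986, 1.23 and 3.63 CPM with cholesterol. Grap2 and Btk, the most abundant of the list in FPKM, had log2 fold changes of −0.10 (adjusted p = 0.227) and −0.09 (adjusted p = 0.391). These genes act in many blood cells besides mast cells.

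**Figure D4:**
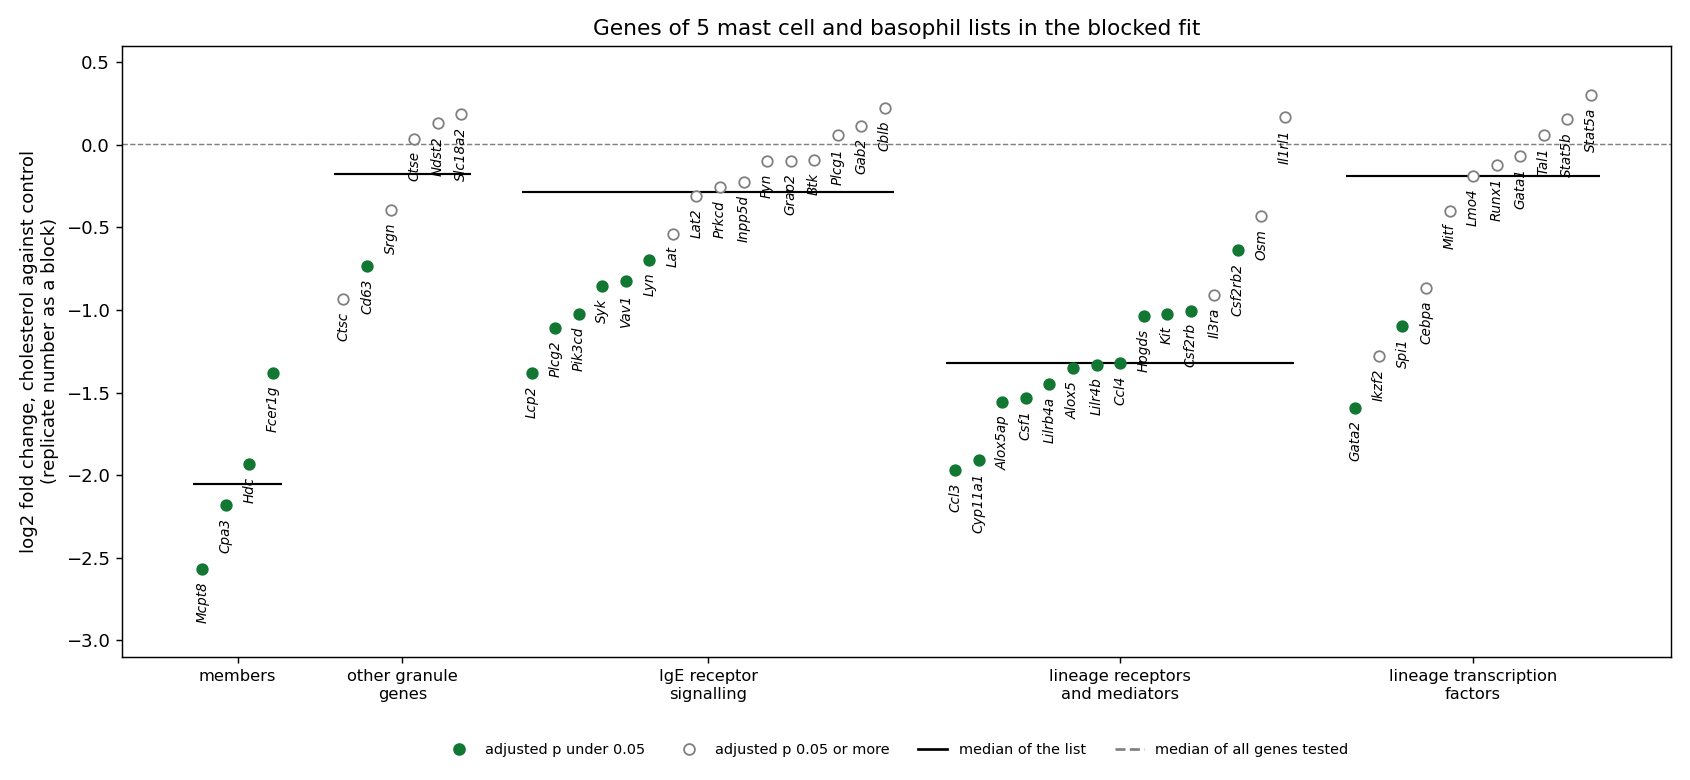
Log2 fold change of cholesterol against control, with the replicate number as a block, for the tested genes of the member list and of 4 further lists, filled green where the adjusted p was under 0.05. Black lines are the list medians, from −2.06 for the 4 tested members to −0.18 for the other granule genes, and the dashed line is the median of all genes tested.

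Receptors and mediators of the lineage had the most calls of the 4 lists. Of 24 genes, 15 passed the filter, of which 12 fell with the block, 0 rose and 3 did not pass, with a median log2 fold change of −1.32. In that fit 5.20% of all genes tested were called lower and 1.65% higher. Those that did not pass were Il3ra (−0.91, adjusted p = 0.141), Osm (−0.43, adjusted p = 0.455) and Il1rl1 (0.17, adjusted p = 0.638) in edgeR with the block. The chemokine gene Ccl3 was at 1.06, 2.97 and 20.3 CPM in control and 0.542, 1.09 and 3.83 CPM with cholesterol, which gave −1.97 log2 units (SE 0.23, adjusted p = 9.67e-05 in edgeR with the block). Cyp11a1 (−1.91), a steroidogenic enzyme, Csf1 (−1.53), a growth factor for macrophages, and the chemokine gene Ccl4 (−1.32) fell as well. The same held for the leukotriene genes Alox5 (−1.35) and Alox5ap (−1.56), the prostaglandin synthase Hpgds (−1.04) and the inhibitory receptors Lilrb4a (−1.45) and Lilr4b (−1.33). The shared beta chains of the IL-3 receptor family, Csf2rb (−1.004) and Csf2rb2 (−0.64), also fell, with adjusted p of 0.000842 and 0.000135 in edgeR. Lilrb4a and Ccl3 had the highest FPKM of the list.
Kit, the receptor for stem cell factor on mast cells and on early erythroid progenitors, was 1 of the 3 tested genes of the list for which the replicate number was not called (adjusted p = 0.895 in edgeR). It was at 2.58, 2.82 and 3.48 CPM in control and at 1.97, 1.38 and 1.02 CPM with cholesterol, so that the groups did not overlap and sample 3 was the lowest of the cholesterol group. Its log2 fold change was −1.02 (adjusted p = 0.0255 in edgeR with the block).

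Among 11 transcription factors of the lineage, 2 fell with the block, 0 rose and 9 did not pass, with a median of −0.19. The same fit called 5.20% of all genes tested lower and 1.65% higher. Gata2, which mast cells and early progenitors both use, was at 6.22, 5.60 and 12.3 CPM in control and at 2.37, 2.57 and 2.76 CPM with cholesterol, without overlap. Its change was −1.59 log2 units (SE 0.19, adjusted p = 6.97e-05 in edgeR with the block). Spi1, which encodes the myeloid factor PU.1, was at 3.84, 7.68 and 22.4 CPM in control and 2.51, 4.001 and 8.38 CPM with cholesterol, which gave −1.10 log2 units (adjusted p = 0.000135). Mitf stood at −0.40 (adjusted p = 0.564). The erythroid factors Gata1 and Tal1, the most abundant of the list in FPKM, stood at −0.07 (adjusted p = 0.406) and 0.06 (adjusted p = 0.494) in the same edgeR fit.

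The other genes whose levels ran most like the members were sought over all genes tested. The measure was the root mean square difference, over the 6 samples, between a gene's centred log2 level and the mean of the 4 tested members. It was 0.16 for Plbd1, the closest, and at most 0.25 for Fxyd5, Cd74, Myo1g, Il18rap, Rgs2, C5ar1, Cd53, Ccr2 and Gm2a, against a median of 1.39 over all genes. The members themselves, which enter the mean, lay 0.21 (Hdc), 0.31 (Fcer1g), 0.36 (Cpa3) and 0.47 (Mcpt8) from it. Plbd1 was at 0.657, 1.68 and 6.96 CPM in control samples 1 to 3 and, with cholesterol, at 0.148, 0.494 and 1.58 CPM. All 6 points of each gene come from the same libraries, and likeness over 6 samples is given as a description only.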

How the data were processed

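RNA-seq of 3 control and 3 cholesterol-treated samples was read from the deposited tables. The authors deposited expected counts, that is, estimated reads per gene without normalization. They also deposited a normalized value taken here as FPKM, since count, total and value imply about the same length of a gene in all 6 samples, while the unit itself is not named. The submitters' processing notes name HISAT2 2.0.4, Bowtie2 2.2.5, RSEM 1.2.12, DESeq2 1.4.5 and GRCm38.p6, without roles, and filters are not given in the sources used here. Between 27.9% and 29.5% of a sample's values were not whole, so counts were rounded. The test was that of edgeR 4.0.16 under R 4.3.3 (filterByExpr with its minimum of 10 counts per sample and 15 over all samples, TMM normalization, robust quasi-likelihood test, Benjamini-Hochberg adjustment over 11277 genes). Limma 3.58.1 (log2(FPKM + 1) and log2(FPKM + 0.1)) and DESeq2 1.42.0 were alternatives. Methods were run on simulated data with either a cholesterol change or a change in the samples numbered 3, but not the 2 together. The simulation thus lacked the differences between numbers seen here beside a cholesterol change, and its outcome is not given. Total counts lay between 19826797 and 20061702.

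The methods of the study name gene set enrichment for these data and general tests between groups for its experiments, but no gene-by-gene test of this table, so condition alone was the planned model and the replicate number as a block the alternative. Same-numbered samples deviated together from their group means, with correlations across genes of 0.772, 0.436 and 0.848 for numbers 1 to 3, so the numbers, which come from the sample labels, were taken as pairs. This check used the same libraries as the blocked tests, and correlations between unlike numbers are not given. It therefore cannot show what the numbers stand for. No 2 libraries were copies of each other. The members and gene lists were chosen with earlier results of these data known. Genes named are the members, genes of the 4 further mast cell lists called in either model, the 2 most abundant genes in FPKM of each of those lists, the most abundant gene in CPM of each marker list and the 10 with the nearest pattern. Mitf, Slc4a1, Adgre1, Gzma, Prf1, Nkg7, Klrk1, Cd5l, Il6, Cd200r3, Il3ra, Osm, Il1rl1 and the undetected proteases lie outside this rule and were named after their values were seen. An erythroid marker gene is not reported here and was left out of its list.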

Additional observations from a re-analysis of the deposited data

How the results depend on the processing

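With condition alone, 0 of the members were called under every alternative: DESeq2 size factors, DESeq2, no filter, at least 10 counts in every sample, limma on log2(FPKM + 1) or log2(FPKM + 0.1), or any 1 sample left out. The replicate block gave 4 members called (5.20% of all genes called lower), and also 4 in DESeq2 (2.56% of all genes called) and 5 without the filter (5.02% called lower), the latter 2 chosen after the data were seen. It gave between 3 and 5, which were all of the members tested, when both samples of a number were left out, where between 296 and 821 of 11128 to 11496 genes were called. The member added at 5, without the samples numbered 1, was Ms4a2. It passed the filter there only through control, with 14 and 27 counts against 5 and 6 with cholesterol, so its call adds no support. Limma on log2(FPKM + 1) with the block, also added later, gave 0 (0.435% of all genes called), and the cause was not tested. The median log2 fold change ranged from −2.75 to −0.74 when each sample was left out, the latter without control sample 3, and that of Fcer1g from −2.63 to 0.020, its 1 reversal. Hdc stayed lower in all 19 alternatives, Cpa3 in the 18 and Mcpt8 in the 17 in which they could be fitted. Differences between replicate numbers were called for 4 members, and for 4 with limma on log2(FPKM + 0.1), but for 1 (Fcer1g) with limma on log2(FPKM + 1), and for 2 when at least 10 counts were required in every sample, since only Fcer1g and Hdc were then tested. Between 3 and 5 were called when each sample was left out, where between 4416 and 4927 of 11377 to 11589 genes were called. Depth limits Fcer1a, Cma1 and Tpsb2, of which no sample had more than 3 counts.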

Other observations

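Some genes of the lists fell below the filter on low counts and are given here as counts only. Il6, a cytokine of mast cells and macrophages, had 1, 6 and 32 counts in control samples 1 to 3 and 0 in all 3 cholesterol samples, where a count of 0 allows up to 3. The basophil receptor gene Cd200r3 had 6, 11 and 55 counts in control and 7, 7 and 6 with cholesterol, so that its high value was in control sample 3 alone. Both genes were picked after their values were seen.

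Cd5l, which encodes a protein that macrophages secrete, was the macrophage gene called higher, where 4 of the list were called lower. Of all genes tested with the block, 5.20% were called lower and 1.65% higher. Cd5l was thus the exception in its list. It had 3, 4 and 25 counts in control and 17, 18 and 75 with cholesterol, a log2 fold change of 1.83 (adjusted p = 0.0032 in edgeR with the block), higher in 3 of 3 pairs, whereas the macrophage gene Adgre1 was at 29, 113 and 452 counts in control and 25, 39 and 141 with cholesterol (log2 fold change −1.44, adjusted p = 0.001).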
